A study of Homo sapiens with 9 samples.

Results

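The transcription factors described here are 10 genes known for switching epithelial cells toward a mesenchymal state or for keeping the basal state: SNAI1, SNAI2, ZEB1, ZEB2, TWIST1, TWIST2, PRRX1, TP63, HMGA2 and SOX4. They were taken by symbol from the deposited expression table, where each has 1 entry among 56609 symbols. RNA had been sequenced in MCF10A, an established, non-tumorigenic human breast epithelial line, with 3 samples in each of 3 groups. The high calcium group received 10 mM calcium with ionomycin, a calcium ionophore whose dose one protocol label gives as 1 mM, for 16 h. The TGFb3 group received transforming growth factor beta 3 for 16 h, and the protocol gives 10 nM for the TGFb ligands. The control group was untreated. All groups grew in medium with horse serum, EGF, hydrocortisone, cholera toxin and insulin. Calcium and ionomycin were given together, so their effects cannot be told apart, and no vehicle sample is labelled.

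Values are TPM, a share of transcripts that is corrected for length and sums to 1000000 in every sample, so the read depth behind each value is unknown. Differences are of log2(TPM + 1), with a standard error (SE) and a two-sided adjusted p from limma, and a gene was called at an adjusted p under 0.05 over the 13968 symbols that averaged at least 1 TPM over the 9 samples. On this scale the change of a low gene is understated. Means carry the SD over 3 samples. Since no label calls the replicates separate cultures, a p-value here reflects spread among the samples alone, possibly technical. Across genes, samples of a group correlated at 0.987 to 0.991 and samples of different groups at 0.925 to 0.944. Mitochondrial RNA took 11.1 to 11.9% of TPM in high calcium samples, 22.2 to 23.3% in TGFb3 samples and 21.7 to 23.3% in controls, and the median log2 difference of all tested symbols from the control was 0.22 in high calcium and -0.06 in TGFb3. Basal epithelial markers were present in every group, with 7 of 7 above 1 TPM on average and a summed level of 5870 to 6150 TPM in high calcium, 4410 to 5060 TPM in TGFb3 and 3020 to 3210 TPM in controls. Of 8 luminal markers, ESR1, PGR, KRT19 and ELF5 were under 1 TPM in every group, while the other 4 were expressed. The 8 summed to 947 to 987 TPM in high calcium, 499 to 554 TPM in TGFb3 and 486 to 588 TPM in controls. In bulk RNA, fewer cells that express a gene and less RNA per cell cannot be told apart.

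SNAI and ZEB proteins are zinc finger repressors that bind E-boxes, short DNA motifs found in the promoters of E-cadherin and other junction genes, and recruit chromatin-modifying corepressors there. TWIST proteins bind E-boxes as dimers with E proteins. TGF-beta signals through SMAD proteins, and in breast epithelium SNAI1, SNAI2, ZEB1, HMGA2 and SOX4 are known to be induced by it. The miR-200 family and miR-205 hold ZEB1 and ZEB2 messages down, the let-7 family does the same for HMGA2, and ZEB1 in turn represses miR-200 genes. TP63 encodes p63, which maintains basal cells of stratified and glandular epithelium.

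The microRNA sequences are shown for their seed matches. ZEB1 and ZEB2 carry far more matches to the miR-200c and miR-141 seeds than most genes do, and HMGA2 to the let-7b seed. Sequences are mature forms from RefSeq (GRCh38.p14), 5′ to 3′, with the seed, bases 2 to 8, in capitals.
hsa-miR-200c-3p: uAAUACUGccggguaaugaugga
hsa-miR-141-3p: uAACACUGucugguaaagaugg
hsa-miR-205-5p: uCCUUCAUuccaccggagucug
hsa-let-7b-5p: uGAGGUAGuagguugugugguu
In the GENCODE 29 coding transcript with the most matches, ZEB1 and ZEB2 each held 6 matches to the miR-200c seed, a number reached by 0.0508% of 19669 coding genes, and 7 to the miR-141 seed, reached by 0.0559%. HMGA2 held 5 matches to the let-7b seed, reached by 0.0763%, and 3 to the miR-200c seed, reached by 1.79%. The miR-205 seed matched ZEB1 and ZEB2 at 2 places each, as in 8.11% of genes. SNAI1 and TWIST1 held no match to any of the 4 seeds. Matches were counted over whole transcripts, with no correction for their length or for the number of transcripts of a gene. A match is a run of letters in the transcript and not a shown site of action, and the mature microRNAs were not measured.

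The E-box bound by SNAI and ZEB proteins is CAGGTG, or CACCTG on the other strand. RefSeq promoter windows, of 250 bases before to 50 after a start, were at hand for 6 of the 10 genes. The ZEB1 window chr10:31318966-31319265 on the plus strand, 1 of 7 for that gene and chosen for its count, held 3 matches on either strand. At least 3 matches were found in 0.635% of 35116 windows. That share is for windows not chosen by count, so it overstates how rare the best of 7 is. At least 1 match was found in 20.6% of windows. The 1 window at hand for each of ZEB2, TWIST2, PRRX1, TP63 and SOX4 held none. GENCODE 29 lists 46 starts for ZEB2, 8 for TP63 and 8 for PRRX1, so not all of their starts were scanned. The TP63 window covers the first listed start and not the last. The PRRX1 window, chr1:170663881-170664180, does not cover its first listed start at 170662728. For SOX4 the window, chr6:21593501-21593800, does not cover the 1 start that GENCODE 29 lists, at 21592768. Each ZEB1 match is shown in 30 bases (GRCh38.p14, plus strand), with the E-box in capitals, because this stretch is also covered by the opposite-strand gene ZEB1-AS1 described further on.
ZEB1 site 1, chr10:31318966-31318995: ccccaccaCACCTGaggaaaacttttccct
ZEB1 site 2, chr10:31319119-31319148: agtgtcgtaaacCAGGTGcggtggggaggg
ZEB1 site 3, chr10:31319236-31319265: tggcggatggcccCAGGTGtaagcgcagaa

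Levels of the 10 genes differed widely, and their order changed with treatment. In high calcium, TP63 led at 60.8 ± 0.919 TPM, followed by SNAI2 at 38.9 ± 0.877 TPM, then HMGA2 and SOX4, whose samples overlapped, TWIST1 and TWIST2, whose samples also overlapped, ZEB1 and ZEB2, and SNAI1. In TGFb3 samples, SNAI2 led at 265 ± 23.7 TPM, above 96.8% of tested symbols. TP63, SOX4 and HMGA2 followed at 72.9 ± 3.61, 66.9 ± 2.35 and 65.0 ± 2.26 TPM, the last pair overlapping, and TWIST2, TWIST1, SNAI1, ZEB1 and ZEB2 came below. In controls TP63 and SNAI2 overlapped at the top, with 50.2 ± 1.46 and 50.1 ± 3.84 TPM. HMGA2 stood next at 37.5 ± 1.09 TPM, TWIST1 and TWIST2 overlapped near 15.6 ± 1.73 and 15.5 ± 0.338 TPM, and SOX4 was at 12.9 ± 1.07 TPM. ZEB2, ZEB1 and SNAI1 lay under 1 TPM in controls with overlapping samples, and PRRX1 was last in every group.

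**Figure D1:**
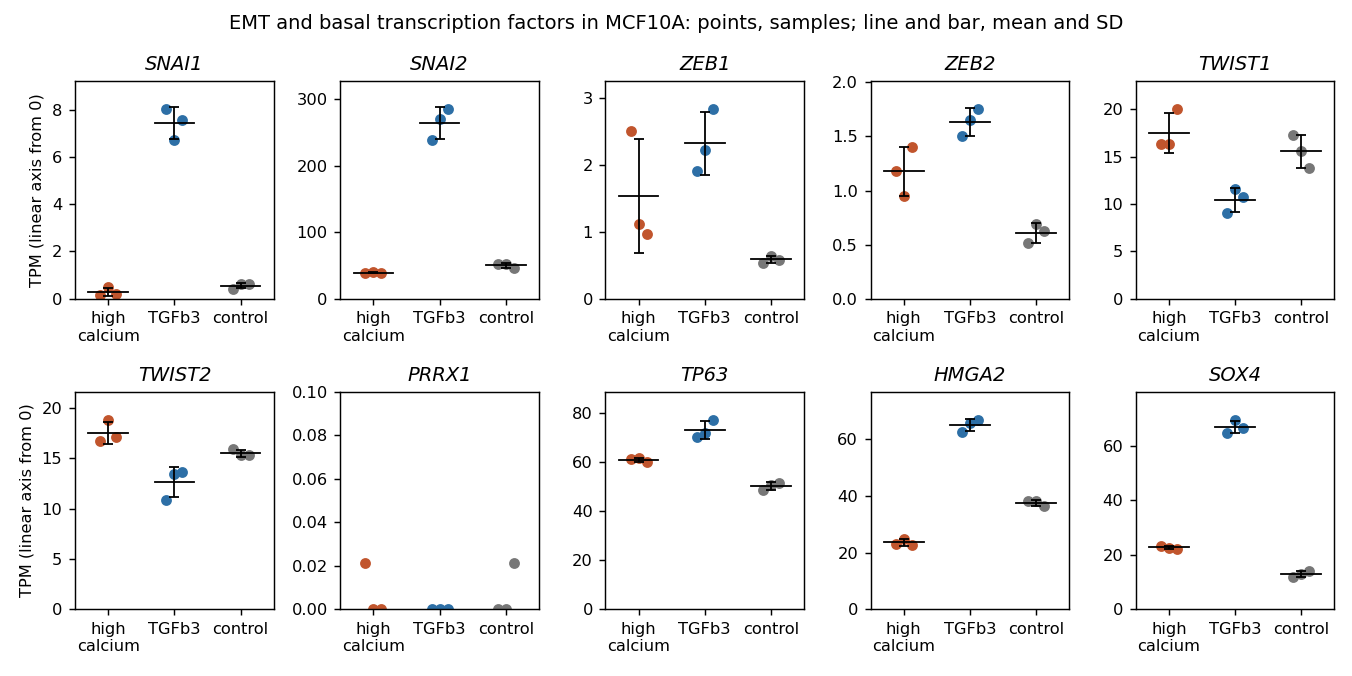
TPM of each of the 10 genes in every sample (linear axis from 0, scaled per gene). Points are samples, and the line and bar are the mean and SD of 3, except for PRRX1, which has points only; SNAI2 reached 239 to 285 TPM in the TGFb3 samples, against 45.7 to 52.4 TPM in controls.

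TGFb3 raised SNAI1, SNAI2, ZEB1, ZEB2, TP63, HMGA2 and SOX4 and lowered TWIST1 and TWIST2. That is 7 genes called higher, where 26.5% of all tested symbols were, and 2 called lower, where 33.1% were. High calcium had 4 called higher (ZEB1, ZEB2, TP63 and SOX4), where 46.1% of tested symbols were, and 2 called lower (SNAI2 and HMGA2), where 17.0% were. After rescaling the samples by the median ratio of all genes, high calcium had 1 called higher, SOX4, and the same 2 lower. SNAI1, ZEB1 and ZEB2 passed the filter on low values only through treated samples, having averaged under 1 TPM in controls, so the counts are a description and not support for a direction. The 2 comparisons use the same control samples. In a direct comparison, high calcium against TGFb3, 2 were higher (TWIST1 and TWIST2), where 50.4% of symbols were, and 5 lower (SNAI1, SNAI2, TP63, HMGA2 and SOX4), where 16.2% were. Samples did not overlap in 7 of the 9 tested genes for high calcium against control, as in 69.0% of all tested symbols, in all 9 for TGFb3 against control, as in 63.8%, and in 8 for high calcium against TGFb3, as in 71.2%.

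**Figure D2:**
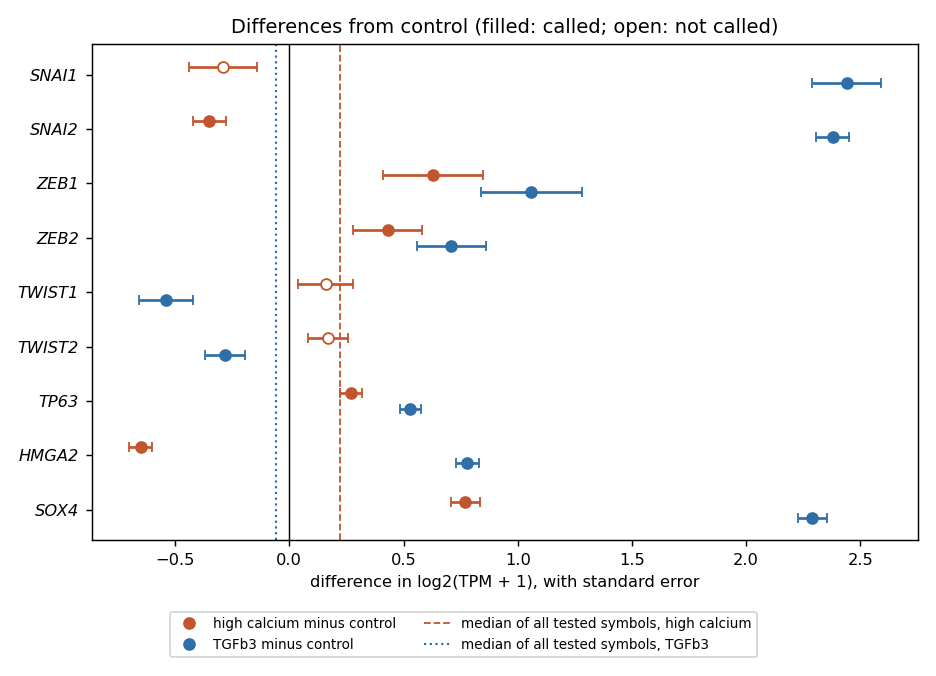
Differences of log2(TPM + 1) from the control, with SE, for the 9 tested genes, high calcium above TGFb3 in each pair. Filled points were called; the dashed and dotted lines mark the median of all tested symbols, 0.22 for high calcium and -0.06 for TGFb3.

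SNAI1 encodes Snail, the first repressor linked to loss of E-cadherin (chromosome 20, 49982999 to 49988886, plus strand, in GENCODE 29 on hg38). It was at 0.157, 0.482 and 0.194 TPM in high calcium samples, 8.01, 6.71 and 7.58 TPM in TGFb3 samples, and 0.417, 0.641 and 0.603 TPM in controls. Every TGFb3 sample was far above every other, while high calcium and control samples overlapped. The TGFb3 mean was 13.4 times the control mean, a log2 difference of 2.44 ± 0.15 SE (adjusted p = 4.6e-07). Since SNAI1 entered the tested set only through the TGFb3 samples, this p is a description and not independent support. In high calcium the difference of -0.29 ± 0.15 was not called (adjusted p = 0.12), though it was after quantile normalisation (-0.59, adjusted p = 0.0063). Between high calcium and TGFb3 the difference was -2.73 ± 0.15 (adjusted p = 1.8e-07).

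SNAI2 encodes Slug, which marks basal mammary cells even before any transition (chromosome 8, 48917604 to 48921740, minus strand). Its level was 39.1, 39.7 and 38.0 TPM in high calcium, 239, 270 and 285 TPM in TGFb3, and 52.2, 52.4 and 45.7 TPM in controls. The 3 groups did not overlap, with TGFb3 highest and high calcium lowest. TGFb3 raised it by 2.38 ± 0.072 on the log2 scale (adjusted p = 5.1e-09), and it fell in high calcium by 0.35 with an SE of 0.072 (adjusted p = 0.0017). High calcium differed from TGFb3 by -2.73 ± 0.072 (adjusted p = 1.2e-09). SNAI2 exceeded SNAI1 in every sample, by 248, 82.3 and 196 times in high calcium, 29.8, 40.3 and 37.7 times in TGFb3, and 125, 81.8 and 75.7 times in controls. The ratio was thus lowest in the 3 TGFb3 samples. In every high calcium and control sample SNAI1 was under 1 TPM, so the ratios there are imprecise.

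ZEB1 and ZEB2 are the large zinc finger and homeodomain repressors targeted by miR-200. ZEB1 (chromosome 10, 31318495 to 31529814, plus strand) was at 2.51, 1.12 and 0.967 TPM in high calcium, 1.91, 2.23 and 2.83 TPM in TGFb3, and 0.536, 0.64 and 0.583 TPM in controls. Treated samples all lay above the controls and overlapped each other, and high calcium replicate 1 stood apart from its group. Since ZEB1 entered the tested set only through treated samples, its p-values are a description and not independent support. The TGFb3 rise of 1.06 ± 0.22 was called (adjusted p = 0.0022). The high calcium rise of 0.63 ± 0.22 was called (adjusted p = 0.032) but the call was lost in 10 of 18 alternatives. Without high calcium replicate 1 it was 0.36 (adjusted p = 0.11), and without control replicate 1, 2 or 3 it was 0.60, 0.65 and 0.62 (adjusted p = 0.076, 0.06 and 0.066). It was also not called with a pseudocount of 5 (0.22, adjusted p = 0.055), in an unfiltered fit (0.63, adjusted p = 0.068), after median ratio rescaling (0.49, adjusted p = 0.073), quantile normalisation (0.24, adjusted p = 0.36), or leaving out mitochondrial genes (0.58, adjusted p = 0.058). Between the treatments ZEB1 differed by -0.43 ± 0.22, which was not called (adjusted p = 0.11), but it was without high calcium replicate 1 (-0.69, adjusted p = 0.008), after median ratio rescaling (-0.62, adjusted p = 0.031) and after quantile normalisation (-0.76, adjusted p = 0.013).

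ZEB2 (chromosome 2, 144364364 to 144524583, minus strand) was at 1.18, 0.951 and 1.4 TPM in high calcium, 1.5, 1.65 and 1.75 TPM in TGFb3, and 0.512, 0.69 and 0.625 TPM in controls. Its groups did not overlap and ran from TGFb3 at the top to the controls. Like ZEB1, ZEB2 entered the tested set only through treated samples, so its p-values are a description and not independent support. TGFb3 gave a rise of 0.71 ± 0.15 (adjusted p = 0.002) and high calcium one of 0.43 ± 0.15 (adjusted p = 0.026). The high calcium call was lost without high calcium replicate 1 (0.43, adjusted p = 0.062), high calcium replicate 3 (0.36, adjusted p = 0.093) or control replicate 1 (0.39, adjusted p = 0.076), and under all 3 rescalings (0.05 to 0.38, adjusted p from 0.07 to 0.81). Between the treatments ZEB2 differed by -0.28 ± 0.15, which was not called (adjusted p = 0.12), but it was after median ratio rescaling (-0.45, adjusted p = 0.024), quantile normalisation (-0.60, adjusted p = 0.0052) and leaving out mitochondrial genes (-0.43, adjusted p = 0.045). Summed, the ZEB pair reached 2.71 ± 0.864 TPM in high calcium, 3.96 ± 0.592 TPM in TGFb3 and 1.2 ± 0.141 TPM in controls. In TGFb3, where ZEB1 was highest, 15.4% of tested symbols were below it.

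The TWIST genes, basic helix-loop-helix factors with roles in mesoderm and skull development, ran the other way from the SNAI genes in TGFb3. TWIST1 (chromosome 7, 19020991 to 19117672, minus strand) was at 16.3, 16.3 and 20.0 TPM in high calcium, 9.02, 11.6 and 10.7 TPM in TGFb3, and 17.3, 15.6 and 13.8 TPM in controls. Every TGFb3 sample was below every other sample, and high calcium overlapped the controls. With TGFb3 it fell by 0.54 on the log2 scale with an SE of 0.12 (adjusted p = 0.0026).

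TWIST2 (chromosome 2, 238848032 to 238910543, plus strand) was at 16.7, 18.8 and 17.1 TPM in high calcium, 10.9, 13.4 and 13.6 TPM in TGFb3, and 15.9, 15.3 and 15.3 TPM in controls. TGFb3 samples were again lowest, with no overlap. It fell by 0.28 with an SE of 0.087 (adjusted p = 0.019), a call lost without TGFb3 replicate 1 (-0.18, adjusted p = 0.053) or control replicate 1 (-0.26, adjusted p = 0.055). In high calcium the differences of 0.16 ± 0.12 for TWIST1 (adjusted p = 0.25) and 0.17 ± 0.087 for TWIST2 (adjusted p = 0.12) were not called and changed sign under all 3 rescalings, while without TGFb3 replicate 1 TWIST2 was called higher (0.17, adjusted p = 0.044). High calcium exceeded TGFb3 by 0.70 ± 0.12 for TWIST1 (adjusted p = 0.00042) and by 0.45 ± 0.087 for TWIST2 (adjusted p = 0.0012), the TWIST2 call being lost after median ratio rescaling (0.17, adjusted p = 0.13) and quantile normalisation (0.20, adjusted p = 0.088). Together the TWIST genes summed to 35.1 ± 2.03 TPM in high calcium, 23.1 ± 2.74 TPM in TGFb3 and 31.1 ± 2.03 TPM in controls.

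PRRX1, a homeobox factor of limb and facial mesenchyme (chromosome 1, 170662728 to 170739419, plus strand), was the gene listed at or near 0 throughout. It was listed at 0.0212 TPM in high calcium replicate 1 and control replicate 3 and at 0 in the other 7 samples, so it was not tested. Its relative PRRX2 was listed at 0 in all 9. SNAI1, ZEB1 and ZEB2 came next in controls, with no control sample above 0.69 TPM.

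TP63 (chromosome 3, 189631416 to 189897279, plus strand) was at 61.3, 61.4 and 59.8 TPM in high calcium, 70.1, 71.6 and 77.0 TPM in TGFb3, and 48.5, 50.8 and 51.3 TPM in controls. The groups did not overlap, and both treated groups were above the controls. TGFb3 raised it by 0.53 ± 0.047 (adjusted p = 5.3e-06). The high calcium difference of 0.27 ± 0.047 was called (adjusted p = 0.00054) but was 0.05 relative to the median of all symbols and was not called after median ratio rescaling (0.02, adjusted p = 0.69), quantile normalisation (0.10, adjusted p = 0.068) or leaving out mitochondrial genes (0.08, adjusted p = 0.17). TP63 was lower in high calcium than in TGFb3, by a difference of -0.26 ± 0.047 (adjusted p = 0.00075). GENCODE 29 lists 14 TP63 transcripts with 8 starts, the first at 189631416 and the last at 189789801. The long TA and short deltaN proteins begin at different starts, and a gene-level TPM does not separate them.

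HMGA2, an architectural chromatin protein of embryonic tissue and a let-7 target, moved in opposite directions under the 2 treatments, as SNAI2 did (chromosome 12, 65824131 to 65966295, plus strand). Its level was 23.2, 24.9 and 22.7 TPM in high calcium, 62.4, 65.8 and 66.7 TPM in TGFb3, and 38.1, 38.2 and 36.3 TPM in controls. The 3 groups were well apart. It fell by 0.65 in high calcium with an SE of 0.051 (adjusted p = 2.5e-06) and rose by 0.78 ± 0.051 in TGFb3 (adjusted p = 7.1e-07). The fall was larger than that of SNAI2 and the rise smaller. High calcium differed from TGFb3 by -1.42 ± 0.051 for HMGA2 (adjusted p = 9.5e-09), and the directions of its 3 differences and their calls held under every alternative tried.

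SOX4, an SRY-box factor placed downstream of SMADs in breast epithelium (chromosome 6, 21592768 to 21598619, plus strand), was at 23.2, 22.6 and 22.3 TPM in high calcium, 64.8, 69.4 and 66.4 TPM in TGFb3, and 11.8, 13.0 and 13.9 TPM in controls. No groups overlapped, and replicates lay within a few TPM of each other. It rose by 0.77 ± 0.064 in high calcium (adjusted p = 3.2e-06) and by 2.29 ± 0.064 in TGFb3 (adjusted p = 2.9e-09), and high calcium differed from TGFb3 by -1.52 ± 0.064 (adjusted p = 2.6e-08). Alone among the 9 tested genes, SOX4 was called higher in both treatments under all 3 rescalings.

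Added together, the 10 genes came to 184 ± 1.9 TPM in high calcium, 504 ± 33 TPM in TGFb3 and 184 ± 4.84 TPM in controls. SNAI2 made up 21.1 ± 0.281% of that sum in high calcium, 52.5 ± 1.3% in TGFb3 and 27.3 ± 1.41% in controls. TP63 and HMGA2 gave 33.0 ± 0.301% and 12.8 ± 0.47% in high calcium, 14.5 ± 0.507% and 12.9 ± 0.407% in TGFb3, and 27.4 ± 1.32% and 20.4 ± 0.101% in controls. As a share of all transcripts, the sum in high calcium thus matched the control, although its composition differed. Mitochondrial RNA took 11.1 to 11.9% of TPM in high calcium and 21.7 to 23.3% in controls. The sums were not rescaled for this difference.

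**Figure D3:**
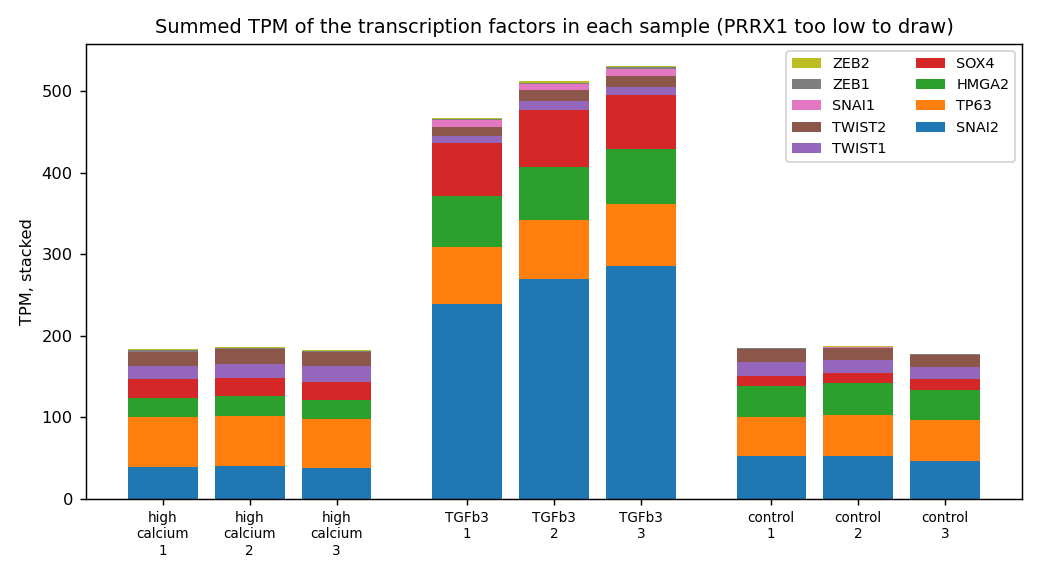
Stacked TPM of the transcription factors in each of the 9 samples, with PRRX1 too low to draw. The TGFb3 bars are the tallest and are led by SNAI2. Without rescaling, high calcium and control bars are of like height, averaging 184 TPM each.

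Genes on the opposite strand that were high enough to test overlap ZEB1 and HMGA2. Others, too low to test or not listed, lie over ZEB1, ZEB2, TWIST1, TP63, HMGA2 and SOX4. One of these over HMGA2, AC090673.2, was at 0.864, 1.39 and 0.902 TPM in high calcium and at 0 in TGFb3 and control samples. The strandedness of the libraries is not given in the sources used here, so reads from the 2 strands cannot be told apart. ZEB1-AS1 (chromosome 10, 31206278 to 31320447, minus strand) starts within ZEB1 and was at 11.1, 11.6 and 11.5 TPM in high calcium, 3.66, 3.41 and 3.98 TPM in TGFb3, and 4.74, 4.51 and 4.72 TPM in controls. It rose by 1.13 ± 0.085 in high calcium (adjusted p = 1.7e-06). In TGFb3 it fell by 0.27 with an SE of 0.085 (adjusted p = 0.019), a call lost without TGFb3 replicate 2 (-0.23, adjusted p = 0.063) and when only the compared groups were fitted (adjusted p = 0.061). ZEB1-AS1 was thus above ZEB1 itself in every sample, whereas ZEB2-AS1 was listed at 0 in all 9.

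RPSAP52, a transcribed pseudogene that overlaps the start of HMGA2 (chromosome 12, 65758020 to 65826997, minus strand), was at 2.21, 2.59 and 2.3 TPM in high calcium, 5.34, 5.92 and 6.91 TPM in TGFb3, and 0.871, 1.07 and 1.35 TPM in controls. It rose by 1.75 ± 0.14 in TGFb3 (adjusted p = 2.1e-06), as HMGA2 did. In high calcium it rose by 0.69 ± 0.14 (adjusted p = 0.0014; 0.29 and adjusted p = 0.079 after quantile normalisation), where HMGA2 fell.

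**Figure D4:**
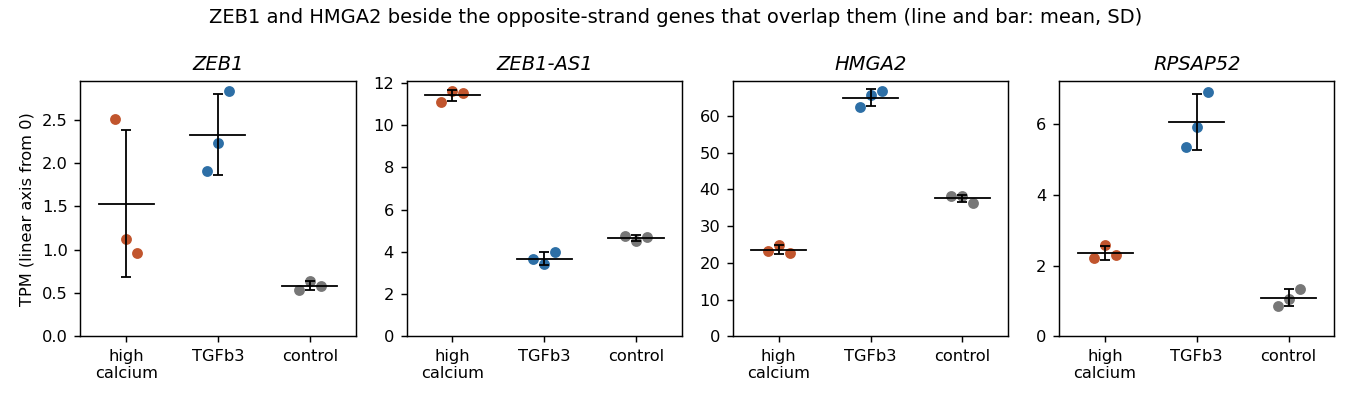
TPM of ZEB1 and HMGA2 beside the tested opposite-strand genes that overlap them, in every sample (line and bar, mean and SD of 3). ZEB1-AS1 was highest in high calcium, at 11.1 to 11.6 TPM, and RPSAP52 in TGFb3, at 5.34 to 6.91 TPM.

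Relatives and dimer partners of the 10 genes were often listed at 0 or not called. Of 12, 6 were high enough to test, 1 higher and 2 lower in high calcium, and 1 higher and 1 lower in TGFb3. For comparison with this and the following lists, 46.1% of all tested symbols were higher and 17.0% lower in high calcium. In TGFb3, 26.5% of them were higher and 33.1% lower. SNAI3, SCRT1, SCRT2, PRRX2 and SOX11 were listed at 0 in all samples. HMGA1 was lower in high calcium, at 445 ± 19.5 TPM against 573 ± 12.3 TPM in controls (-0.36, adjusted p = 4.7e-05), and was not called in TGFb3 (-0.03, adjusted p = 0.6). TCF4, an E protein that pairs with TWIST, was lower in high calcium, at 3.54 ± 0.53 TPM against 7.02 ± 1.19 TPM in controls (-0.82, adjusted p = 0.00045).

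Other transcription factors linked to the transition, 11 tested of 12, gave 7 higher and 2 lower in TGFb3, with a list median of 0.95 against -0.06 for all symbols. ETS1, SOX9 and FOXC2 rose by 1.82, 1.5 and 1.23, ETS1 averaging 65.3 ± 7.45 TPM in TGFb3 and 17.7 ± 1.63 TPM in controls. High calcium gave 6 higher and 5 lower, with a median of 0.30 against 0.22, and 1 higher and 5 lower after each of the 3 rescalings. RUNX1 was that factor, with 37.3 ± 1.72 TPM in high calcium against 20.9 ± 1.67 TPM in controls (0.81), and ETS1 fell by 0.69. Thus ETS1, like SNAI2 and HMGA2, was called lower in high calcium and higher in TGFb3.

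Early readouts of TGF-beta and SMAD signalling were mostly higher in TGFb3. Of 13 genes, 11 were higher and 2 lower there, with a median of 2.35. PMEPA1, a feedback inhibitor of the pathway, was at 15.8 ± 0.645 TPM in high calcium, 517 ± 26.8 TPM in TGFb3 and 22.2 ± 1.07 TPM in controls. It rose by 4.48 ± 0.055 in TGFb3, and SMAD7, an inhibitory SMAD, by 1.85 ± 0.094. High calcium gave 6 higher and 5 lower (4 and 7 after median ratio rescaling), with a median of -0.07 against 0.22. ID2, a dominant negative partner of E proteins, fell there by 1.62.

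Mesenchymal genes gave 11 higher and none lower of 13 tested in TGFb3, of 19 in the list, with a median of 2.15. Several of them, MMP9 among them, were tested only because TGFb3 raised them. FN1, fibronectin, was at 47.9 ± 1.38 TPM in high calcium, 5280 ± 346 TPM in TGFb3 and 47.7 ± 3.75 TPM in controls. CDH2, N-cadherin, was at 8.18 ± 0.886 TPM in high calcium, 35.3 ± 2.1 TPM in TGFb3 and 7.94 ± 0.56 TPM in controls. Vimentin, VIM, rose in both treatments, by 0.60 ± 0.068 in high calcium and 1.54 ± 0.068 in TGFb3. High calcium gave 7 higher and 1 lower (7 and 2 after median ratio rescaling), with a median of 0.57. TNC, a matrix glycoprotein, rose there by 4.13 ± 0.14, while TAGLN, an actin-binding protein, fell by 1.81 with an SE of 0.13. In TGFb3 both rose, TNC by 4.3 ± 0.14 and TAGLN by 2.15 ± 0.13. TNC averaged 0.885 TPM in controls and passed the filter only through treated samples, so its rises are a description. Of 7 stromal markers, COL1A2, COL3A1, LUM, PDGFRA and PDGFRB were under 1 TPM in every group, and the 7 summed to 9.99 to 12.6 TPM in high calcium, 28.5 to 32.0 TPM in TGFb3 and 2.6 to 3.52 TPM in controls.

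Epithelial junction and splicing genes, the classic targets of SNAI and ZEB repression, were split in TGFb3: 6 of 19 were higher, 6 lower and 7 not called. CDH1, E-cadherin, was at 154, 155 and 150 TPM in high calcium, 191, 186 and 169 TPM in TGFb3, and 90.8, 89.8 and 102 TPM in controls. Both treated groups were above the controls without overlap, by 0.69 ± 0.06 in high calcium (adjusted p = 4.8e-06) and 0.94 ± 0.06 in TGFb3 (adjusted p = 5.6e-07). EPCAM, an epithelial adhesion protein, fell in TGFb3, to 118 ± 5.87 TPM against 294 ± 15.4 TPM in controls (-1.31), whereas CLDN4, a tight junction protein, rose there by 2.37 ± 0.15. High calcium gave 14 higher and 2 lower, with a median of 0.49 (11 and 2 after median ratio rescaling). ESRP1, the epithelial splicing regulator that ZEB1 is known to repress, was at 24.1, 17.1 and 21.9 TPM in high calcium, 0.649, 1.08 and 0.498 TPM in TGFb3, and 1.04, 0.532 and 0.425 TPM in controls. It rose by 3.73 ± 0.19 in high calcium (adjusted p = 1.2e-07), and its TGFb3 difference of 0.07 ± 0.19 was not called (adjusted p = 0.78). ESRP1 averaged 0.744 TPM in TGFb3 and 0.667 TPM in controls, so it entered the tested set only through the high calcium samples. The p of its rise is therefore a description and not independent support.

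Epithelial transcription factors gave 3 higher and 3 lower of 11 tested in TGFb3, and 5 higher and 2 lower in high calcium (4 and 4 after median ratio rescaling). These counts lie near the shares of all tested symbols, 26.5% higher and 33.1% lower in TGFb3, and 46.1% and 17.0% in high calcium. EHF, an ETS factor of epithelia, was at 24.4 ± 1.68 TPM in high calcium, 3.73 ± 0.705 TPM in TGFb3 and 64.1 ± 4.17 TPM in controls, so that it fell in both. KLF4, a factor of epithelial differentiation, rose in both, by 1.86 ± 0.09 in high calcium and 1.61 ± 0.09 in TGFb3. OVOL1, a repressor of mesenchymal genes, rose by 1.75 ± 0.15 in TGFb3. It averaged 0.796 TPM in controls and passed the filter only through treated samples, so this rise is a description. GRHL2, an epithelial factor usually expressed in this kind of cell, was listed at 0 in all 9 samples. An exact 0 in a table without counts can be a failed estimate, so the zeros given here are not read as absence.

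Basal genes and p63 targets gave 13 higher and 3 lower of 18 tested in TGFb3, with a median of 0.90, and 12 higher and 3 lower in high calcium, with a median of 0.47 (10 and 5 after median ratio rescaling). LAMA3 and LAMB3, which encode subunits of laminin-332 in the anchoring matrix of basal cells, rose in both treatments. LAMA3 was at 710 ± 23 TPM in high calcium, 1900 ± 79.6 TPM in TGFb3 and 181 ± 5.69 TPM in controls. LAMB3 rose by 2.12 ± 0.068 in high calcium and 3.27 ± 0.068 in TGFb3. Keratins differed among themselves. KRT5 rose by 0.52 ± 0.058 in high calcium and was not called in TGFb3 (-0.10, adjusted p = 0.15), and KRT15 fell by 2.11 in TGFb3. KRT14 varied within groups, with 28.6, 15.9 and 28.6 TPM in high calcium, 26.6, 20.4 and 13.4 TPM in TGFb3, and 9.8, 2.26 and 10.6 TPM in controls. Its TGFb3 rise of 1.46 ± 0.46 (adjusted p = 0.018) was not called without TGFb3 replicate 1 (1.25, adjusted p = 0.069).

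**Figure D5:**
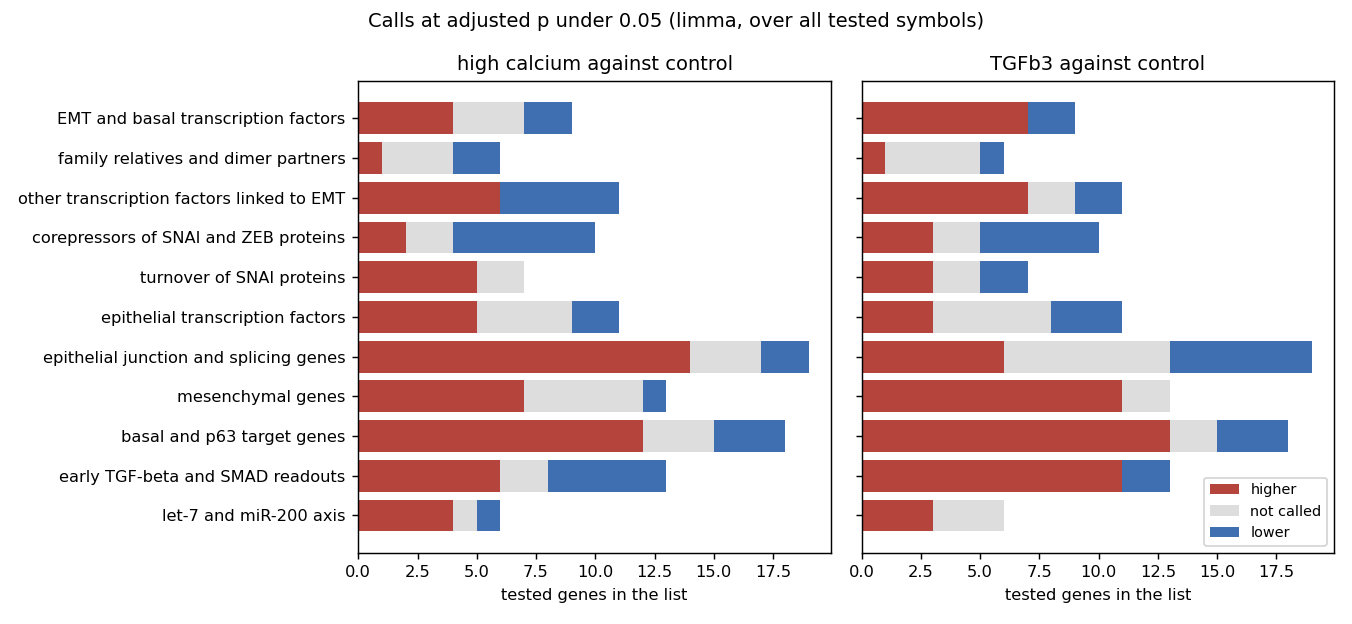
Number of tested genes called higher, not called and called lower in each gene list, for high calcium (left) and TGFb3 (right) against the control. In TGFb3 the mesenchymal list has 11 higher and none lower, while the junction list is split 6 and 6. Of all tested symbols, 46.1% were higher and 17.0% lower in high calcium, and 26.5% and 33.1% in TGFb3.

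Host transcripts of the microRNAs shown above were measured. MIR200CHG, host of miR-200c and miR-141, was at 17.9, 16.5 and 20.9 TPM in high calcium, 10.6, 10.5 and 9.54 TPM in TGFb3, and 11.6, 9.58 and 9.48 TPM in controls. High calcium samples were above all others, by 0.79 ± 0.10 over controls (adjusted p = 9.6e-05), and TGFb3 samples overlapped the controls (0.00 ± 0.10, adjusted p = 0.99). MIR205HG, host of miR-205, was at 366 ± 11.1 TPM in high calcium, 222 ± 12 TPM in TGFb3 and 186 ± 17.9 TPM in controls, called higher in both (0.97 and 0.26). MIRLET7BHG, host of let-7b, was at 4.49, 3.44 and 4.11 TPM in high calcium, 4.73, 3.87 and 4.41 TPM in TGFb3, and 2.3, 1.79 and 4.15 TPM in controls, and is named here after its values were seen. Its groups overlapped through the highest control. It was not called in high calcium (0.46 ± 0.21, adjusted p = 0.073) and was called higher in TGFb3 (0.56 ± 0.21, adjusted p = 0.039), a call lost in 8 of 18 alternatives, among them those without control replicate 1 (0.49, adjusted p = 0.11), control replicate 2 (0.37, adjusted p = 0.14) or any 1 TGFb3 replicate (adjusted p = 0.051 to 0.11). LIN28A and LIN28B, which block let-7 processing, were listed at 0 in all samples, and IGF2BP3, an RNA-binding protein and let-7 target like HMGA2, rose by 0.81 in TGFb3.

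The genes nearest in profile to each factor were found by the root mean square difference of centred log2(TPM + 1) over the 9 samples, among 10174 candidates. COL4A2, a basement membrane collagen, was nearest to SNAI1 (0.14 on the log2 scale) and second to SNAI2 (0.15), and IVNS1ABP was nearest to SNAI2 (0.12). ITGAV, an integrin subunit, and F3, tissue factor, were nearest to SOX4 (0.043 and 0.049), at 240 and 516 TPM in TGFb3 and 50.5 and 107 TPM in controls. CTSC was nearest to HMGA2 (0.062), with a mean of 128 TPM in high calcium, 321 TPM in TGFb3 and 193 TPM in controls. MAP3K20 was nearest to TP63 (0.03), RAP2B to ZEB2 (0.074), IFT57 to TWIST1 (0.091), ADO to TWIST2 (0.046) and PLEKHA1 to ZEB1 (0.20), the loosest of these matches. No shared function or control is read from such nearness.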

How the data were processed

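RNA of 9 MCF10A samples was extracted with Trizol and sequenced as paired ends on an Illumina NovaSeq, per the labels' protocols. The submitters' processing notes name HISAT2 and hg38. Not given in the sources used here: counting program, annotation, strandedness, poly(A) selection. Values deposited by the authors are TPM for 58288 annotated entries. The 1932 entries that share 253 symbols were summed, leaving 56609 symbols, and 0 value columns were left unmapped. TPM keeps no depth, so no counting interval is given.

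Coordinates are 1-based, from GENCODE 29, with members matched by stable identifier. Symbols averaging 1 TPM or more, 13968 in all, were fitted as log2(TPM + 1) with limma 3.58.1 in R 4.3.3, in 1 model of the 3 groups (empirical Bayes with a variance trend, 6 residual degrees of freedom), with Benjamini-Hochberg adjustment over all symbols within a comparison. The method was tested on simulated data. Tables and figures used Python 3.11.15, pandas 2.3.3 and matplotlib 3.10.9. The genes and lists were chosen with earlier results of these data known. Named list genes were up to 4 called ones per comparison, with the largest differences and at least 5 TPM in the higher group, plus a set named whatever their values; not every gene so picked is named. Alternatives were other pseudocounts, filters and scalings, a fit of only the compared groups, no variance trend, each replicate left out, and the replicate number as a block. Values of 4 genes in the lists are not reported here.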

Additional observations from a re-analysis of the deposited data

How the results depend on the processing

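High calcium differences depend on scaling, since TPM is a share and the median symbol moved by 0.22. Genes called in high calcium against control numbered 6438 higher and 2378 lower, against 4148 and 4303 after median ratio rescaling, 3991 and 4464 after quantile normalisation, and 3761 lower with mitochondrial genes left out. Against TGFb3 they numbered 7038 higher and 2256 lower, against 4143 and 4297, 4364 and 4181, and 3415 lower under those settings. Of the transcription factors, 4 were called higher in high calcium against control, 1 under each of these rescalings, 2 with a mean of at least 5 TPM, and 2 to 5 with 1 replicate left out (2 without high calcium replicate 1 or control replicate 1, 5 without TGFb3 replicate 1). In TGFb3 against control, 7 were higher, 4 with a mean of at least 5 TPM, a filter that removes SNAI1, ZEB1 and ZEB2, and 2 were lower, 1 to 2 with 1 replicate left out. Of the 2 higher in high calcium than in TGFb3, 1 was called after median ratio rescaling and 1 after quantile normalisation. Signs turned, with no call, for TWIST1 in high calcium (-0.08, -0.08 and -0.02 after median ratio, quantile and mitochondrial rescaling), TWIST2 (-0.07, -0.06 and -0.02), ESRP1 in TGFb3 (-0.07 to 0.23 with 1 replicate left out, -0.03 without control replicate 3) and MIR200CHG in TGFb3 (-0.01 after quantile normalisation, -0.05 to 0.09 with 1 replicate left out). No label says that replicate numbers pair the samples. Deviations of same-numbered samples correlated at -0.0747 to -0.00372, and those of differently numbered samples at -0.0345 to 0.0896. These correlations cannot show whether samples were handled in pairs. With a replicate block the ZEB1 call in high calcium was lost (0.63, adjusted p = 0.055), and the genes called there were 6258 higher and 2299 lower. Where a call was lost, the cause was not tested. Depth is unknown, which limits SNAI1, ZEB1 and ZEB2 most, whose values lie near 1 TPM or below in controls.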

Other observations

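Genes that act on SNAI and ZEB proteins after transcription form 2 short lists, and nothing particular to the lists is read from their counts. Of all symbols tested, 46.1% were higher and 17.0% lower in high calcium, and 26.5% were higher and 33.1% lower in TGFb3. Of 7 genes for turnover of SNAI proteins, high calcium gave 5 higher and none lower (4 higher after median ratio rescaling), and TGFb3 gave 3 higher and 2 lower. FBXL14, the ubiquitin ligase subunit that targets Snail family proteins, was at 7.47, 6.57 and 6.47 TPM in high calcium, 1.3, 1.49 and 1.04 TPM in TGFb3, and 3.18, 2.69 and 4.21 TPM in controls. The 3 groups did not overlap: it rose by 0.86 ± 0.15 in high calcium (adjusted p = 0.00059) and fell by 0.93 in TGFb3 (adjusted p = 0.00037). MDM2, a ubiquitin ligase known to act on Slug, ran the same way, at 84 ± 3.52 TPM in high calcium, 28.1 ± 1.28 TPM in TGFb3 and 47.6 ± 6.05 TPM in controls. FBXL5, another ligase subunit, rose in high calcium by 1.02 ± 0.038 and was not called in TGFb3 (-0.05, adjusted p = 0.28). GSK3B, the kinase that marks Snail for degradation, rose in both, by 0.70 and 0.51.

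Of 10 corepressor genes, 2 were higher and 6 lower in high calcium (1 and 8 after median ratio rescaling), and 3 higher and 5 lower in TGFb3. EZH2, the Polycomb methyltransferase, was at 33.6, 34.8 and 33.5 TPM in high calcium, 33.6, 32.5 and 34.5 TPM in TGFb3, and 55.7, 56.9 and 50.5 TPM in controls. It was called lower in both, and the treatments overlapped. KDM1A, the demethylase LSD1, fell by 0.41 in high calcium and was called higher in TGFb3 (0.17, adjusted p = 0.0026). HDAC2 was at 60.0, 88.9 and 133 TPM in the 3 controls, a wide spread, and its call in high calcium (-0.73, adjusted p = 0.02) was lost without control replicate 3 (-0.44, adjusted p = 0.052), high calcium replicate 2 (-0.66, adjusted p = 0.064) or high calcium replicate 3 (-0.65, adjusted p = 0.064), as well as in an unfiltered fit (adjusted p = 0.066).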
